A study of Mus musculus with 2 samples.

Results

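The distal peaks of the 50 µL scFFPE-ATAC library formed 475 dense clusters on the autosomes of mouse FFPE spleen, which together held 6431 peaks. They were chosen by peak positions alone: a peak was distal when it lay more than 3 kb from every transcription start site (TSS), neighbours were chained when the gap between them was at most 12500 bp, and chains of 10 or more peaks were kept. The members were 11.9% of the 53860 autosomal distal peaks and 7.19% of all 89382 peaks of the library. Clusters with the most peaks included those at Btg1, Bach2, Foxp1 and Rftn1. Of 26 listed B cell genes 10 were linked to a cluster, where 2.36% of all protein-coding genes were and 3.33% would be at the same mix of broad length classes. That list was written with earlier results of these data known, so the contrast is a description.

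Regulatory DNA away from promoters is cut by Tn5 transposase where nucleosomes have been displaced by transcription factors. Where many such sites sit side by side, as at genes that set the identity of a cell, they are often described as enhancer clusters, and joining sites across short gaps is a common way to find them. In spleen, PU.1 occupies such sites in B cells and myeloid cells, RUNX and ETS factors act in most lymphocytes, and CTCF marks insulators and the ends of chromatin loops. Peak lists show where DNA was open in the mixture of cells, and not which cell type opened it.

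The study tested conditions of scFFPE-ATAC, in which nuclei from formalin-fixed paraffin-embedded tissue are tagged with a barcoded Tn5 and repaired from a T7 promoter. Both libraries came from spleens of C57BL/6J mice, 8 weeks old by the study's methods, fixed for 16 h in 4% formalin. One was labelled as a 50 µL reaction system and the other as made without density gradient centrifugation, the step that separates nuclei from debris. Each condition had 1 library, so no difference has a replicate check, no test was made, and intervals cover counting error only. Whether the nuclei of the 50 µL library went through the gradient is not given in the sources used here, and the protocol text of both libraries describes a reaction of 100 µL. As a check of the labelled tissue, a promoter peak was present in the 50 µL list for 26 of 26 B cell, 28 of 30 T cell and 5 of 11 NK cell genes, for 6 of 18 genes of endothelium and stroma and for 1 of 7 of megakaryocytes. Genes of other tissues had one in 3 of 25 and all genes in 57.8%. In the list without gradient centrifugation these were 15 of 26 B cell and 9 of 30 T cell genes, and 44.9% of all genes.

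The sequences around the peak summits were read from the GRCm38.p6 reference, the assembly behind mm10. PU.1 was searched as GAGGAAGT on both strands, and 5 summit windows of the Btg1 cluster, the largest number in any cluster, held it. They are shown on the strand that carries the motif, with the motif in capitals. In the first, the motif lies outside the called peak, because the 200 bp window around the summit reaches past the edge of the peak.
Btg1 - strand chr10:96601840-96601907: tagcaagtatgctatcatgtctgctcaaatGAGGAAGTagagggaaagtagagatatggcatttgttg
Btg1 + strand chr10:96606000-96606067: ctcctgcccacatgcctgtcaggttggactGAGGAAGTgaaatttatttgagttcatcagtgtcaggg
Btg1 - strand chr10:96630444-96630511: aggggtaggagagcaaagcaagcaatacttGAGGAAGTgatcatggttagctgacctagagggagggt
Btg1 - strand chr10:96652027-96652094: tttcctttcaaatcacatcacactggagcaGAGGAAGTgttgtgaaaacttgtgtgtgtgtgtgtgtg
Btg1 + strand chr10:96675536-96675603: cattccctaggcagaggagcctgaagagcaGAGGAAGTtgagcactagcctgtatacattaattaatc

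A CTCF motif was searched by its fixed letters, CCA, AG and GGC with 2 free bases between them. The cluster nearest to Rpia, which lies 70.9 kb beyond Igkc, the constant region of the kappa light chain, held 4 such windows, the most of any cluster. It was chosen after its values were seen, and the motif is in capitals.
Rpia - strand chr6:70798001-70798072: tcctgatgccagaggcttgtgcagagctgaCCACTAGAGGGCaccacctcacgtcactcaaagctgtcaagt
Rpia + strand chr6:70805465-70805536: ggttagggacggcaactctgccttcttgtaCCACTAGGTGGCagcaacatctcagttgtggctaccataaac
Rpia - strand chr6:70806093-70806164: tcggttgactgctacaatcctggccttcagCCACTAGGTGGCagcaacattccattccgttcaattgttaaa
Rpia + strand chr6:70812013-70812084: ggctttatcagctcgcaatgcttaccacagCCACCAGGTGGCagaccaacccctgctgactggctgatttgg

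The strongest peak of a cluster, by −log10 q, gives 150 bases around its summit for 5 clusters that the results return to. Capitals mark an ETS-IRF composite (GGAA and GAAA with 2 free bases between them) at Rftn1, RUNX (TGTGGTT) at Lef1 and Nab1 and PU.1 at Tbc1d9, each on either strand, and none was found at Inpp4b.
Rftn1 + strand chr17:50078943-50079092: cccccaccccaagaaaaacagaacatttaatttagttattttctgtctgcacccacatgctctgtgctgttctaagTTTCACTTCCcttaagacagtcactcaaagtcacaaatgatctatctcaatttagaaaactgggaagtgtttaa
Lef1 + strand chr3:131208611-131208760: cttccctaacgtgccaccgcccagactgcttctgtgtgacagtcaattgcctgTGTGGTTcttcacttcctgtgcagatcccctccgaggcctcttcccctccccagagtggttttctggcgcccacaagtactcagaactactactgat
Tbc1d9 + strand chr8:83140971-83141120: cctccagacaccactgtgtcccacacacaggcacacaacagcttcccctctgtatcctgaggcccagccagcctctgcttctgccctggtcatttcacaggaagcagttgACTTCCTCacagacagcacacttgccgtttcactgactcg
Nab1 + strand chr1:52409275-52409424: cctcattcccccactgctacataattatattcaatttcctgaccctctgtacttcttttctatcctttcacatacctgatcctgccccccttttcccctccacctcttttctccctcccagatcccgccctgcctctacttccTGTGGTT
Inpp4b + strand chr8:81541474-81541623: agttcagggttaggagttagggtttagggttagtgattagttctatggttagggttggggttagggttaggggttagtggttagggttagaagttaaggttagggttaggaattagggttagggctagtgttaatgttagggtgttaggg
The Nab1 window was 97.3% repeat sequence as masked in the reference, and the Inpp4b window held the telomeric unit TTAGGG 11 times although 18.0% of it was masked. Neither peak was in the other list. The Rftn1, Lef1 and Tbc1d9 peaks were in both lists. So was the strongest Bcl11a peak, whose window was also 97.3% repeat.

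The clusters held 10 to 44 peaks, with a median of 12, and spanned 19.9 to 213 kb, with a median of 55.0 kb. The gap between neighbours inside them had a median of 3892 bp. Their spans added up to 28.8 Mb, of which peaks covered 2.46 Mb. Larger clusters were few: 130 held 15 or more peaks, 41 held 20 or more and 8 held 30 or more. The limit of 10 cuts a continuous range, because 126 clusters had exactly 10 peaks and 177 chains just outside the rule had 9. Those with 10 peaks had a median span of 41.7 kb, a median fold enrichment of 2.89 and 20.2% of their peaks in the other list, and those with 9 had 39.9 kb, 3.03 and 21.0%. Clusters of this size depended on the weaker peaks of the list: among peaks with a fold enrichment of at least 4 the longest chain had 6 peaks, at March1, and among the 25343 most significant peaks it had 8, at Pik3ap1.

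**Figure D1:**
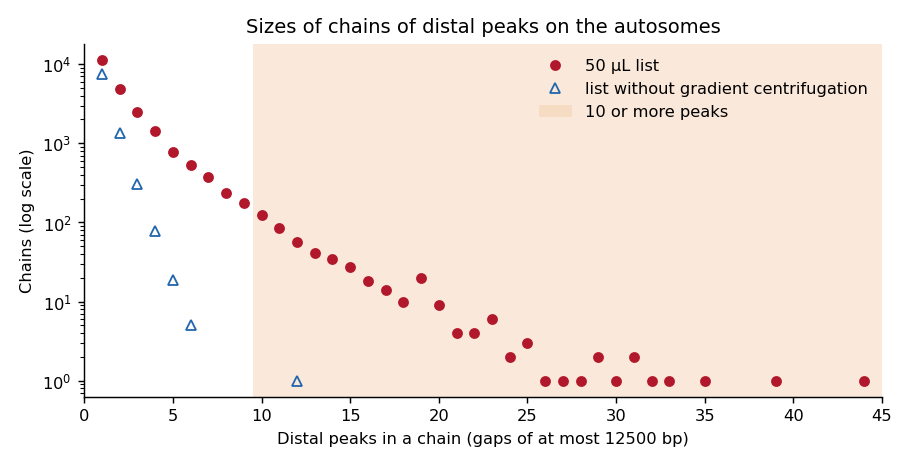
Number of chains of autosomal distal peaks (log scale) against the number of peaks in a chain, for the 50 µL list (filled circles) and the list without gradient centrifugation (open triangles). The shaded range holds the 475 clusters of the 50 µL list, and 1 triangle, the chain of 12 peaks at Ptk2b, lies in it.

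Of the 475 clusters, 337 overlapped the body of a gene that codes for protein or an antigen receptor, 177 of them wholly inside 1 protein-coding gene, and 138 overlapped no protein-coding, immunoglobulin or T cell receptor gene and were linked to the protein-coding gene with the nearest TSS, at a median of 27.4 kb. Genes of other types could lie in these spans. By place, 52.7% of members (95% exact interval 51.4 to 53.9) were in introns of protein-coding genes and 40.3% (39.1 to 41.5) were intergenic, and among the 47429 other distal peaks these shares were 51.4% and 39.5%. Exons held 2.47% of members (2.11 to 2.88) and 4.18% of the others (4.00 to 4.36). Chromosomes differed: members were 7.14% of distal peaks on the chromosome with the lowest share and 16.9% on chromosome 19.

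The cluster with the most peaks surrounded Btg1, an antiproliferative gene often mutated in B cell lymphoma. It had 44 peaks over 213 kb (chr10:96540672-96753556), fold enrichments of 1.86 to 4.97 and 6 peaks in both lists. Its strongest peak lay 134 kb from the Btg1 TSS, near the far end of the cluster. Bach2, a repressor that holds B cells back from the plasma cell fate, had 39 peaks over 166 kb (chr4:32257731-32423906), all in introns, and 6 were in both lists. Foxp1, a forkhead factor needed for early B cells, had 35 peaks over 140 kb (chr6:99240521-99380582), of which 3 were shared.

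Membrane and signalling genes followed. Rftn1, a lipid raft protein of B cells, had 33 peaks over 155 kb (chr17:50050642-50205362), with fold enrichments up to 6.36 and 5 shared. Ralgps2, an exchange factor for Ral, had 31 peaks over 159 kb, and its strongest peak, at a fold enrichment of 4.76, was not among the 5 shared. Ptprj, the receptor phosphatase CD148, had 29 peaks over 153 kb and 7 shared. Arid1b, a subunit of the BAF chromatin remodeller, had 31 peaks over 126 kb, all intronic, and 8 shared. Klhl25, an adaptor of CUL3 ubiquitin ligases, had 30 peaks over 127 kb and 8 shared. A cluster with 29 peaks and 5 shared spanned 4930512M02Rik and Spata48 on chromosome 11. Shared peaks lay from 24.6 to 211 kb after the start of the Btg1 cluster and from 0.749 to 156 kb at Bach2. At Arid1b several lay together, from 40.7 to 63.2 kb, with others at 0.165 and 100 kb. At 4930512M02Rik all lay between 26.1 and 78.0 kb.

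**Figure D2:**
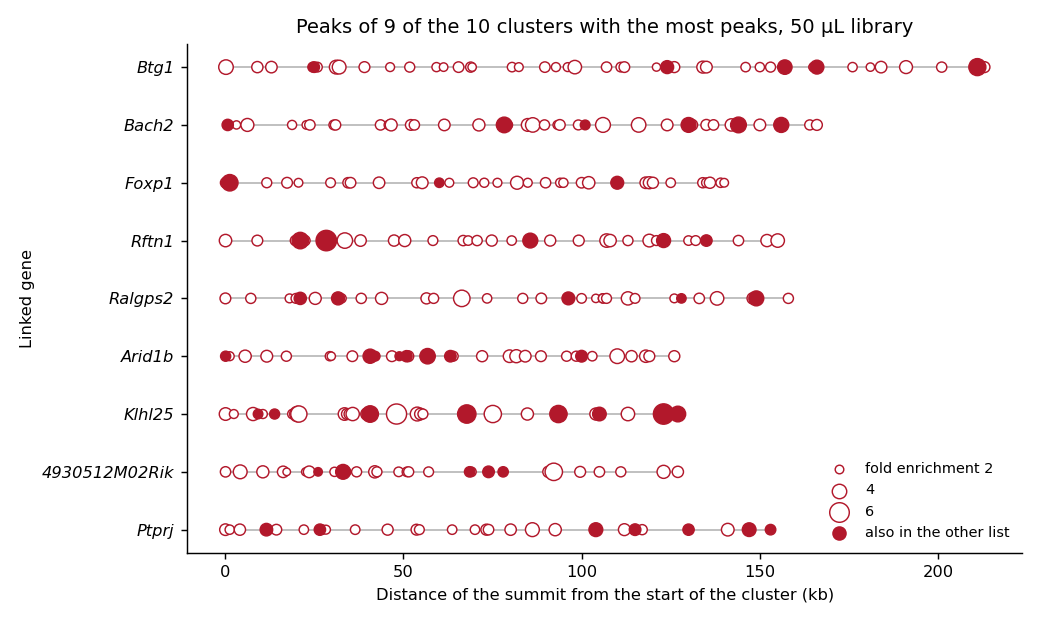
Peaks of 9 of the 10 clusters with the most peaks in the 50 µL library, by the distance of the summit from the start of the cluster in kb, with circle size for fold enrichment and filled circles for peaks also in the list without gradient centrifugation. Filled circles number from 3 of 35 at Foxp1 to 8 of 31 at Arid1b and 8 of 30 at Klhl25.

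In the list without gradient centrifugation, which the rule did not use, 1339 of the 6431 members had a peak that overlapped by at least 1 bp. That was 20.8% (19.8 to 21.8), against 19.5% of all autosomal distal peaks and 19.3% (19.0 to 19.7) of those outside the clusters. Of the 475 clusters 443 had at least 1 such peak, 32 had none, and the median cluster had 20.0% of its peaks in both lists. The shared peaks were mostly the strong ones. The most significant peak of a cluster was shared in 310 of 475 clusters (65.3%, 60.8 to 69.5), the next in 49.9% and the one after it in 35.2%. Peaks at rank 11 or below were shared in 5.95% (4.87 to 7.19). First and last peaks were shared in 22.3% (19.7 to 25.1) and inner peaks in 20.6% (19.5 to 21.7), and these intervals overlap.

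Clusters of 15 or more peaks ranged widely in this respect. Ptk2b, the kinase PYK2, had 14 of 21 peaks in both lists (66.7%, 43.0 to 85.4), at chr14:66175787-66265411. It was also the single chain of 10 or more peaks in the list without gradient centrifugation, where it had 12 peaks over 67.4 kb and all 12 met a 50 µL peak. Mturn followed with 9 of 19 peaks, Ctsc, the protease that activates granule serine proteases, and A430078G23Rik with 7 of 15 each, and Tbc1d9 with 7 of 16. At the other end, Msi2, an RNA-binding protein, had 0 of 20, which allows up to 16.8%. Nab1, a corepressor of EGR factors, Nipbl, the cohesin loader, and Bank1, a scaffold of the B cell receptor, had 0 of 19 each (up to 17.6%), and Inpp4b, a lipid phosphatase, had 0 of 16 (up to 20.6%). These clusters were picked as the extremes, so the distance between them is a description.

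The reads behind each peak could be recovered, because the caller's fold enrichment and p-value come from the same pair of numbers. One is the pileup, the number of reads, each extended to 200 bp, that cover the summit. The other is the background, the reads expected there, which the caller takes as the larger of a genome-wide level and the reads in 10 kb around the summit scaled to 200 bp. All 89382 and 25343 peaks gave a whole pileup that returned the listed −log10 p within 0.001. Every background above the genome-wide level was a whole number of reads in 10 kb, within 0.05 reads. The genome-wide background was 10.8 reads in the 50 µL library and 2.76 in the other, a ratio of 3.89, which is the ratio of their depths if the same genome size was set. Numbers of reads in all and of cells were not used here.

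Members had more reads at the summit and more reads around them than other distal peaks, and a lower ratio between the pair. Their median pileup was 78.0 (77.0 to 79.0) and their median background 26.4 (26.1 to 26.8), against 55.0 and 15.2 (15.1 to 15.3) outside the clusters. Their median fold enrichment was 2.83 (2.81 to 2.86) against 3.29 (3.28 to 3.31). The genome-wide level set the background for 1.28% of members and 20.7% of the others, and for 46.7% of single distal peaks. These values come from the list that chose the members, and the 10 kb around a member holds its neighbours, so they are a description. The library that the rule did not use had the same order: its 1403 distal peaks inside the spans had a median background of 5.44 (5.34 to 5.52) and a fold enrichment of 4.49 (4.41 to 4.55). Its 10073 distal peaks outside the spans had 3.86 (3.82 to 3.90) and 5.26 (5.22 to 5.31).

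**Figure D3:**
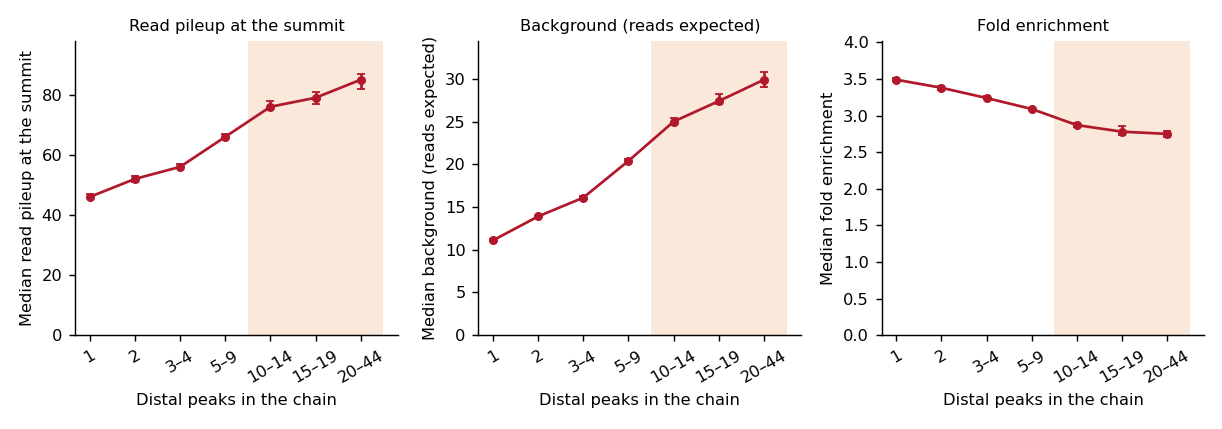
Median read pileup at the summit, median background in reads and median fold enrichment of 50 µL distal peaks by the number of peaks in their chain, with 95% order statistic intervals and clusters shaded. From single peaks to chains of 20 to 44 peaks the median pileup went from 46.0 to 85.0, the background from 11.1 to 29.9 and the fold enrichment from 3.49 to 2.75.

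Clusters differed more in background than in fold enrichment. The median background of a cluster was 1.00 to 5.03 times the genome-wide level, with a median of 2.44, and was above 2 times it in 334 of 475. At the strongest Btg1 peak the pileup was 162 over a background of 31.8 in the 50 µL library and 40 over 6.80 in the other. At the strongest Ctsc peak these were 158 over 43.3 and 55 over 10.3. At the strongest Satb1 peak they were 101 over 24.4 and 44 over 4.84. The caller adds the same constant to both numbers before it divides them. The fold enrichments of this Satb1 peak were 4.02 in the 50 µL library and 7.71 in the other. The 5 named clusters of 15 or more peaks without a shared peak differed among themselves. Nab1, Nipbl and Inpp4b had median pileups of 50.0, 51.0 and 47.5 and median backgrounds of 1.37, 1.74 and 1.45 times the genome-wide level, whereas Msi2 and Bank1 had pileups of 85.5 and 88.0 and backgrounds of 2.82 and 3.03 times it.

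Whether members were found again more or less often than other distal peaks depended on what was held equal. At the members' mix of −log10 q, other distal peaks would have been shared in 20.3%, close to the members' 20.8%. In the decile with the highest −log10 q the shares were 67.5% (63.7 to 71.1) and 68.7% (67.4 to 70.1). At the members' mix of pileup, however, other distal peaks would have been shared in 32.4%. In the highest decile by pileup, 52.3% of members (49.6 to 55.1) and 67.8% of the others (66.4 to 69.2) were shared. The members were lower in deciles 2 to 10 by pileup and not in decile 1, where they had 2.60% (0.712 to 6.52) and the others 1.83% (1.49 to 2.24). Background was higher at clusters in both libraries, as given above, and its part in this difference was not tested.

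**Figure D4:**
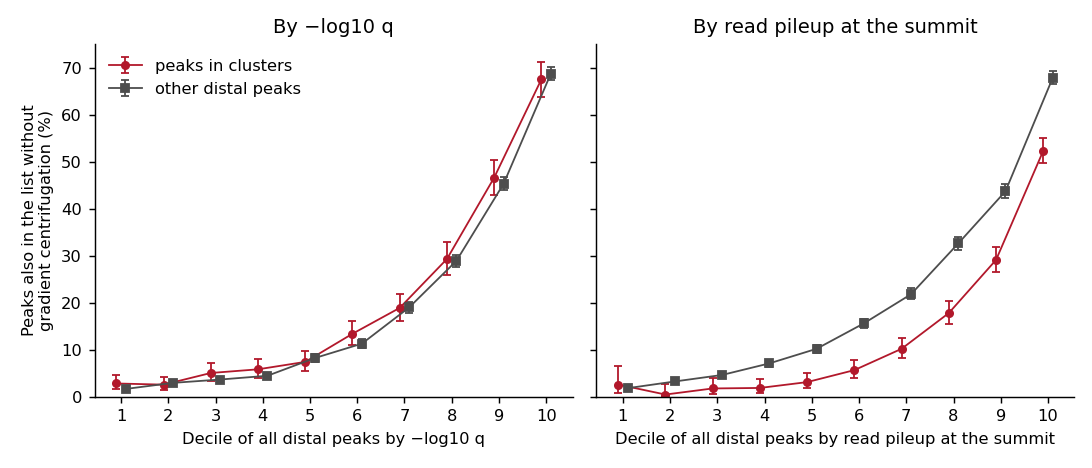
Percent of 50 µL distal peaks that were also in the list without gradient centrifugation, with 95% exact intervals, by decile of −log10 q (left) and of read pileup (right). On the left the series for clusters and for other distal peaks lie close together, and on the right the clusters are lower in deciles 2 to 10, with 52.3% against 67.8% in decile 10.

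In all, 491 of 20780 autosomal protein-coding genes were linked to a cluster, 2.36%. Long genes were linked more often: 0.801% of genes under 20 kb, 2.73% of those from 20 to 100 kb and 8.57% of those over 100 kb. The cell type lists were written with earlier results of these data known, so the shares for them are a description. Of the B cell genes 10 of 26 were linked (38.5%, 20.2 to 59.4), where all genes at the same mix of these length classes would give 3.33%. Lengths inside a class were not matched. They were Bach2, Foxp1, Ralgps2, Bank1, Bcl11a, Blnk, Ebf1, Cxcr5, Cd79b and Ciita. Bcl11a, a factor of early lymphoid cells, had 16 peaks between genes at chr11:24223795-24283765. The edge of this cluster lay 81.4 kb from the nearest TSS of a protein-coding gene. Its strongest peak, in repeat sequence as given above, had a fold enrichment of 5.30. Blnk, the adaptor below the B cell receptor, had 11 peaks over 42.0 kb, of which 3 were shared. Of the genes that define B cells in most panels, Cd79a, Ms4a1, Pax5 and Cd22 were not linked, although each had a promoter peak.

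Of the T cell genes 5 of 30 were linked (16.7%, 5.64 to 34.7), against 2.93% at the same mix of length classes. Lef1, an HMG factor of naive T cells, had 23 peaks over 90.1 kb and 3 shared. Ccr7, the receptor that guides lymphocytes into T zones and that B cells also carry, had 19 peaks and 4 shared. Cd2, an adhesion receptor, had 16 peaks and 1 shared, Satb1, a chromatin organiser, 13 and 1, and Ets1 11 and 2. The Satb1 cluster lay 246 kb from the TSS of that gene, with all 13 peaks in introns of genes that do not code for protein. Of the myeloid genes 2 of 30 were linked (6.67%, 0.818 to 22.1), Cebpb with 12 peaks and 3 shared in a cluster that also spanned Tmem189, and Itgam, which codes for CD11b, with 10 peaks and 0 shared.

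In the other lists 1 of 11 NK cell genes (Klrb1c) and 1 of 12 dendritic cell genes (Flt3) were linked. None was linked of 14 erythroid, 7 megakaryocyte, 18 endothelial and stromal, 25 other-tissue and 20 developmental genes. None of 15 long neuronal genes was linked either, with a median length of 1612 kb, where 8.57% of all genes over 100 kb were. An upper bound of 21.8% goes with that 0, so these small lists leave a wide range.

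Linked genes mostly had an open promoter. A promoter peak, 1 kb or less from a TSS, was listed in the 50 µL library for 447 of 491 (91.0%, 88.2 to 93.4), against 57.8% of all genes. In the list without gradient centrifugation, which did not choose the clusters, 69.9% of linked genes (65.6 to 73.9) and 44.3% of the others (43.6 to 45.0) had one. Among genes over 100 kb alone the shares in that list were 73.4% (66.8 to 79.3) and 41.1% (39.0 to 43.2).

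CTCF was the motif whose share differed most, in percentage points, between clusters and other distal peaks. It was in 2.60% (2.22 to 3.02) of the 200 bp windows around member summits, in 6.04% (5.83 to 6.26) of those outside and in 1.21% of windows 2 kb to the side of members. By size of chain it was in 8.26% (7.76 to 8.78) of single distal peaks, 5.65% in chains of 3 to 4, 2.76% (2.27 to 3.32) in chains of 10 to 14 and 1.75% (1.04 to 2.76) in chains of 20 or more. The same order held within introns, 2.36% (1.88 to 2.93) against 5.10% (4.82 to 5.38), and between genes, 2.93% (2.32 to 3.66) against 7.44% (7.07 to 7.82). Among peaks in the highest of 4 classes of fold enrichment it was 5.03% (3.65 to 6.74) against 11.3% (10.7 to 11.8), and in the lowest, with 2830 of the members, 1.73% (1.28 to 2.28) against 2.24% (1.97 to 2.54), where the intervals overlap. In the highest of 4 classes of background the gap was small, 2.23% (1.79 to 2.74) against 3.09% (2.76 to 3.46). Members with the motif were in both lists in 45.5% (37.8 to 53.4), the same as the 45.6% (43.7 to 47.4) of other distal peaks with it. By place in the cluster, 2.84% (1.88 to 4.11) of first and last peaks and 2.55% (2.15 to 3.01) of inner peaks had it, and these intervals overlap.

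PU.1 had the highest ratio to the flanks of the 16 motifs, 3.95. It was in 4.73% (4.22 to 5.27) of member windows, 1.20% of their flanking windows and 4.01% (3.83 to 4.19) of other distal windows, and 226 of 475 clusters (47.6%, 43.0 to 52.2) had at least 1. None of the 5 Btg1 windows shown above belonged to a shared peak, and these peaks had fold enrichments of 1.98 to 3.01. In the highest class of background the PU.1 shares were 5.31% (4.62 to 6.06) in clusters and 5.66% (5.20 to 6.14) outside. The ETS-IRF composite, which can share letters with a PU.1 site, was in 3.98% (3.52 to 4.49) against 3.33% (3.17 to 3.50), and RUNX in 7.45% (6.82 to 8.12) against 6.82% (6.60 to 7.05). Flanks of members held them in 2.05% and 4.78%.

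**Figure D5:**
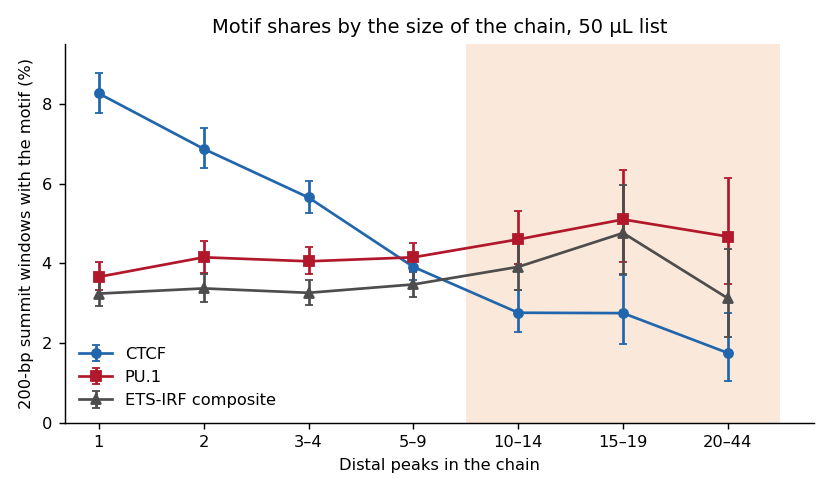
Percent of 200 bp summit windows of 50 µL distal peaks that held a CTCF, PU.1 or ETS-IRF composite motif on either strand, by the number of peaks in their chain, with 95% exact intervals and clusters shaded. CTCF goes from 8.26% of single peaks to 1.75% in chains of 20 or more, and PU.1 is at 3.66% and 4.67% at these ends.

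Several motifs were near the level of the flanks in members. TCF7/LEF1 (CTTTGAA) was in 5.04% (4.52 to 5.60) against 4.93%. AP-1 (TGA and TCA with 1 free base between them) was in 6.25% (5.67 to 6.87) against 6.17%, and C/EBP (TTGCNNAA) in 7.82% (7.18 to 8.50) against 8.31%. The E-box CAGCTG was slightly above the flanks, in 9.49% (8.78 to 10.2) against 8.69%. The GATA factor motif AGATAA was slightly below them, in 10.6% (9.85 to 11.4) against 11.5%. The octamer ATGCAAAT was above the flanks, in 1.83% (1.52 to 2.19) against 1.38%, and so was ETS (CCGGAAGT), in 0.435% (0.290 to 0.629) against 0.155%. MEF2 (CTATTTATA) was in 0.358% (0.227 to 0.536) against 0.218% and STAT (TTCCNGGAA) in 0.389% (0.252 to 0.573) against 0.560%. EBF1 (TCCC and GGGA, 2 free bases apart) was in 0.529% against 0.412%, NF-kB (GGGA and TTCC, 2 free bases apart) in 0.575% against 0.645% and T-box (TCACACCT) in 1.06% against 0.902%. A match of letters is not a bound site.

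Members did not differ much from other distal peaks in base composition, with a median GC content of 45.5% (45.0 to 45.5) against 45.0%. Repeat sequence took 26.5% of member windows and 29.0% of the others. Among members, the shared ones had 16.1% repeat sequence and those in the 50 µL list alone 29.2%, and their flanks had 26.7% and 27.5%. Windows made of repeat for the larger part were 7.24% of the shared and 22.3% of the unshared members.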

How the data were processed

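The data were the peaks of 2 scFFPE-ATAC libraries of mouse spleen, 1 per condition. Per the methods of the study, the authors mapped reads to mm10 with BWA 0.7.17 (mem, seed length 17) and SAMtools 1.17, removed duplicates with a script of their own, called peaks per library with MACS2 2.1.2 (no model, shift 0, q of 0.01) and removed blacklisted regions with bedtools 2.30.0. The submitters' processing notes name BWA, SAMtools and mm10. The sources do not say whether reads outside the retained cells were used. With shift 0 and no model, reads were extended from their ends and not centred on the Tn5 cut, so summits can lie to the side of a site.

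The deposited lists hold a fold enrichment, −log10 p and −log10 q values, and a display score, not used here. The fold enrichment is the ratio of pileup to background at the summit after the caller adds the same constant to both. Pileup and background were solved from the fold enrichment and −log10 p, a step added after the data were seen and tested on simulated data, as were the chaining, overlap and motif steps.

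Distal peaks were taken against every TSS of GENCODE vM21 on GRCm38, after chromosome lengths were checked. A protein-coding, immunoglobulin or T cell receptor gene was linked when its body overlapped the span of a cluster, and a cluster that overlapped none of these was linked to the protein-coding gene with the nearest TSS. Intervals are 95% exact (Clopper-Pearson) for shares and order statistic intervals for medians. Members, gene lists, motifs and alternatives were chosen with earlier results of these data known. Genes named are those of the 10 clusters with the most peaks, of the 5 with the highest and the 5 with the lowest shared percent among clusters of 15 or more peaks, and up to 6 linked genes each from the lists for B cells, T cells and myeloid cells, with others named to show a count or a motif. Results for a few of these genes are not reported here. Alternatives changed the thresholds on peaks, gap, TSS distance, cluster size, overlap, linking and window. Python 3.11.15, pandas 2.3.3 and scipy 1.17.1 were used.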

Additional observations from a re-analysis of the deposited data

Results flagged for a closer look

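The rule took autosomes alone. On the X chromosome, left out of all comparisons, the same chaining gave 4 clusters with 68 of its 1049 distal peaks (6.48%): Tmsb4x with 26 peaks, Sh3kbp1 with 20, Dock11 with 12 and Elf4 with 10. Of these 68 peaks 3 were in the list without gradient centrifugation, 2 at Tmsb4x and 1 at Sh3kbp1. Inside the spans of the autosomal clusters, 53 distal peaks of the list without gradient centrifugation met no 50 µL peak, against 1350 that did. Those that did were 96.2% of the peaks inside the spans, and outside the spans 92.7% of 10073 met a 50 µL peak. The spans were chosen for dense 50 µL peaks, so this is a description. The X chromosome clusters and the 53 peaks had no control samples to be set against.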

How the results depend on the processing

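Of 55 values recomputed for the main results, 27 stayed within their interval or within 1.5 times the count. The number of clusters, 475 with 6431 peaks, depended most on the limits: it was 40 with 460 peaks at a gap of at most 6 kb, 1264 with 22545 peaks at 25 kb, 130 with 2518 peaks at 15 or more per cluster, and 0 with 0 peaks both at a fold enrichment of at least 4 and in a list as long as the other. These last settings gave no shares. The shared percent of members was 18.7 at a gap of 6 kb, 13.0 at a reciprocal overlap of 50% and 18.5 with the summit inside a peak of the other list. For other distal peaks it was 12.6 and 17.6 under these overlaps, and 20.3 and 32.4 at the members' mix of −log10 q and of pileup, both added after the data were seen. The median fold enrichment of members was 2.87 at −log10 q above 5, 2.62 at 6 kb, 3.03 at 25 kb and 2.76 at 15 or more peaks. B cell genes were linked in 7.69% at 6 kb and 19.2% at 15 or more, T cell genes in 0 at 6 kb and 36.7% at 25 kb, and myeloid genes in 0 at 6 kb, at a TSS distance of 5 kb and at 15 or more. All protein-coding genes were linked in 0.197% at 6 kb, 9.79% at 25 kb and 0.693% at 15 or more. In windows of 100 bp PU.1 was in 1.85% of members and 1.77% of other distal peaks, and CTCF in 0.964% and 1.78%. No paired analysis was possible because each condition had 1 library with no replicate number. The lists hold peaks and no single cells, so which cell type carries a cluster was not tested. Nor was the part in unshared peaks of the second library's lower depth, or of the lower quality that the study reports for its condition.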

Other observations

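Some genes were linked to more than 1 cluster: 46 in all, named here after their values were seen. Btg1 had a further cluster of 10 peaks beside its 44, and Foxo1, a factor of resting lymphocytes, had 18 and 25. Cxcr4, a chemokine receptor of most blood cells, had 14 and 19 peaks and Wwox had 3 clusters of 11. Ikzf1, which codes for the lymphoid factor Ikaros, had clusters of 10 and 25 peaks. Upstream of it the cluster of 29 peaks at 4930512M02Rik ended 15.9 kb before the first of them, which in turn ended 13.3 kb before the second, so gaps just over the limit separated 64 peaks into 3 clusters.

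Of 490 annotated immunoglobulin and T cell receptor genes, 2 were linked to a cluster, where 2.36% of all protein-coding genes and 0.801% of those under 20 kb were. Within clusters the SD of log2 fold enrichment between peaks was 0.34, and the SD between clusters was 0.11, 8.67% of the variance.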
